A study of Rattus norvegicus with 6 samples.

Results

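The mitochondrial DNA of rat dorsal root ganglia was read at 359 CpG positions, of 3067317 positions listed in 6 reduced representation bisulfite sequencing (RRBS) libraries. The members are every position listed on the mitochondrial chromosome in at least 1 library. Of these, 108 were listed in all 6 libraries and 89 in a single library. At 14 positions, numbered here as sites 1 to 14 along the molecule, no library had fewer than 100 reads, a depth also reached by 32674 nuclear sites. These 14 sites held 98.6% of the mitochondrial coverage.

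The SNL libraries (SNL 1 to 3) came from ganglia taken 3 weeks after spinal nerve ligation, a model of neuropathic pain in which ligatures close the left L5 and L6 spinal nerves. They were compared with 3 libraries (Sham 1 to 3) from ganglia taken 3 weeks after a sham operation without a ligature, which the labels place on the opposite side. The animals were Sprague-Dawley males, 8 to 9 weeks old and weighing about 220 g. Whole ganglia hold neurons, glia and other cells, and the labels do not say how many animals or which ganglia went into a library, so libraries of both groups may share an animal. Coverage was summed over all listed positions, so a read counts once at each position that it covers. Summed coverage ran from 29420922 to 34293779 in SNL libraries and from 27247702 to 32243538 in Sham libraries.

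Mitochondrial DNA is a small circular genome present in many copies per cell. It encodes core subunits of the respiratory chain together with the ribosomal and transfer RNAs that translate them. It is packed by the protein TFAM rather than by histones. Whether its CpGs carry methylation is debated, because cytosines that escape bisulfite conversion are read as methylated and because the nuclear genome holds inserted copies of mitochondrial sequence. RRBS reads only the ends of fragments cut by MspI, an enzyme that cuts at CCGG, so only a few places on this molecule can be deep.

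Mitochondrial DNA took up a smaller share of the coverage after SNL. Its share of all coverage was 0.258%, 0.197% and 0.268% in SNL 1 to 3, against 0.543%, 0.349% and 0.426% in Sham 1 to 3. The highest SNL library lay below the lowest Sham library, and Sham 1 was the highest of all. SNL libraries averaged 0.241% ± 0.0382 and Sham libraries 0.439% ± 0.0974 (SD, n = 3 each), a ratio of 0.549. The exact two-sided permutation test gave p = 0.1, the smallest that 3 libraries against 3 allow (0.15 when adjusted over 6 exact tests). Counting error was small beside this. The 95% Wilson interval was 0.266% to 0.27% in SNL 3 and 0.347% to 0.352% in Sham 2, although reads that cover several positions are counted more than once and PCR copies are not separated.

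No nuclear chromosome showed a difference of this size. The ratio of SNL to Sham shares was between 0.993 (chromosome 15) and 1.01 (chromosome 1) over the 21 nuclear chromosomes listed, and the groups did not separate at any of them. Without any library in turn the mitochondrial ratio stayed between 0.498 and 0.622. A share of coverage is relative: fewer mitochondrial genomes per cell, fewer cells that are rich in them, and a different recovery of small circular DNA cannot be told apart in these libraries.

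**Figure D1:**
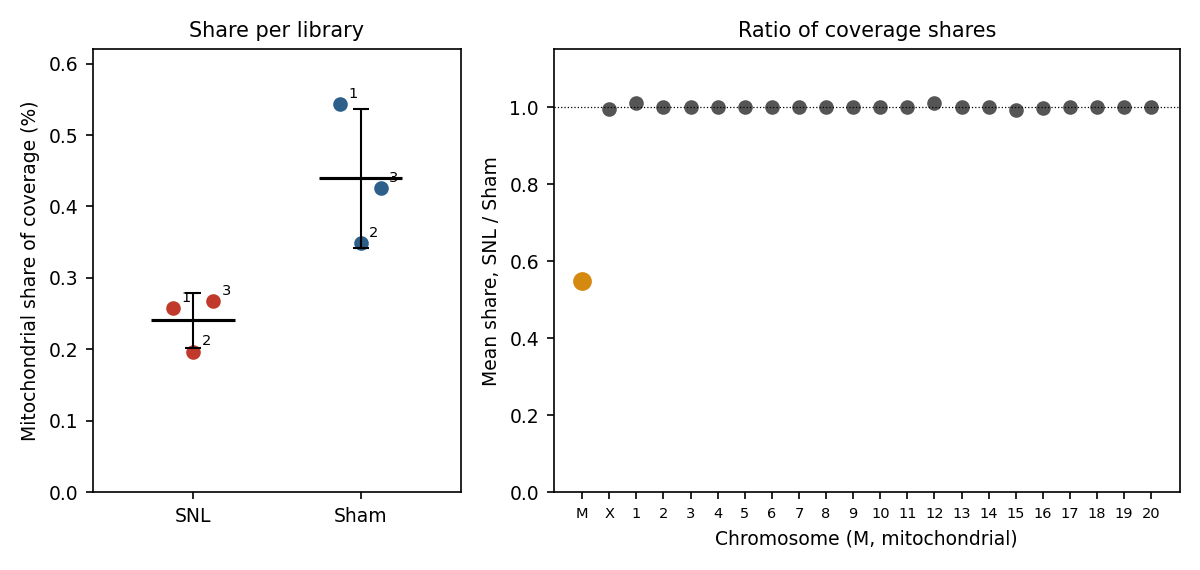
Left, mitochondrial share of summed coverage (percent) in each library, with numbered points for libraries, a line for the group mean and a bar for the SD (n = 3). Right, the mean share after SNL over that in Sham for each chromosome: the mitochondrial ratio is 0.549 and the nuclear ratios lie between 0.993 and 1.01.

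The 14 deep sites fell into 6 runs of positions under 50 bases apart with coverage equal to within 5% in every library, as positions on the same reads would have. Coverage of a run is given as the mean over its positions, per 1000000 of the library's summed coverage (CPM). Positions are in the rat assembly rn4. An annotation of the mitochondrial genes in that build was not used here, so no run is assigned to a gene.

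Most reads came from 2 stretches of the molecule. Run 4 (sites 6 to 9, mitochondrial positions 8822 to 8869) had 251, 205 and 258 CPM in SNL 1 to 3, against 536, 401 and 451 CPM in Sham 1 to 3, a ratio of 0.514. Run 5 (sites 10 to 12, positions 12749 to 12789) had 313, 224 and 321 CPM after SNL, against 641, 372 and 489 CPM in Sham, a ratio of 0.571. Run 6 (sites 13 and 14, positions 12846 to 12864) had 258, 192 and 279 CPM after SNL, against 559, 287 and 384 CPM in Sham, a ratio of 0.593. In these 3 runs every SNL library lay below every Sham library, with the narrowest gap in run 6.

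The single position of run 3 (site 5, position 8670) stood apart most clearly. It had 66.3, 46.9 and 67.5 CPM after SNL, against 128, 115 and 125 CPM in Sham, a ratio of 0.491. The 2 shallow runs were less clear. Run 1 (sites 1 and 2, positions 5707 and 5734) averaged 4.63 ± 0.686 CPM after SNL and 7.53 ± 2.44 CPM in Sham (SD, n = 3 each), without overlap. Run 2 (sites 3 and 4, positions 5735 and 5768) had 8.39, 5.96 and 6.03 CPM after SNL, against 18, 6.81 and 9.08 CPM in Sham, where SNL 1 lay above Sham 2.

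Position by position, coverage was fitted over all 319525 positions with a mean of 20 reads or more, with edgeR's quasi-likelihood test and Benjamini-Hochberg adjustment. This included 24 mitochondrial positions. All 24 had a lower fitted coverage after SNL, with log2 ratios between -1.86 and -0.7 and a median of -0.97. For comparison, the nuclear positions had a median of -0.01, and their central 95% spanned -0.64 to 0.51. Among 1204 nuclear positions with a mean coverage of 1000 reads or more the median was 0.16 and the lowest value -0.89, against a median of -0.89 for the 10 mitochondrial positions of that depth.

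In this fit, without a replicate block, no position, mitochondrial or nuclear, passed the adjustment (0 of 24, and 0% of all positions tested). At an unadjusted p under 0.05, 24 of 24 mitochondrial positions were lower after SNL, against 2.25% of all positions. At 22 of the 24, every SNL library lay below every Sham library in CPM, against 4.24% of all positions. Positions of a run share reads, so the 24 are not independent. Without Sham 2, 2 positions (15722 and 15732, 10 bases apart) passed with an adjusted p of 0.0306 each in edgeR's test, and 15732 is named for that, after its values were seen. With same-numbered libraries as a block, 11 of the 24 passed, all lower after SNL. Of all 319525 positions 62 passed in that fit, 20 of them lower after SNL. The library numbers are not shown to pair libraries.

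Outside the deep sites, the 3 positions of highest methylation among those with 20 or more reads in every library were 1778, 15722 and 134, at 2.61%, 2.44% and 2.13% over all libraries. Position 1778, the first outside the limit of 100 reads, with 89 in its thinnest library against 134 for site 1 just inside it, was covered by 89, 92 and 105 reads in SNL 1 to 3, against 360, 257 and 285 reads in Sham 1 to 3. Its log2 ratio was -1.73 ± 0.17 (SE; adjusted p = 0.362, edgeR's quasi-likelihood test). Position 15722 was covered by 49, 52 and 47 reads after SNL, against 207, 122 and 180 reads in Sham, a log2 ratio of -1.86 ± 0.21 (SE; adjusted p = 0.362, edgeR). Position 134 was covered by 21, 38 and 29 reads after SNL, against 130, 75 and 83 reads in Sham, a log2 ratio of -1.78 ± 0.25 (SE; adjusted p = 1, edgeR). At each of them all SNL libraries lay below all Sham libraries.

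**Figure D2:**
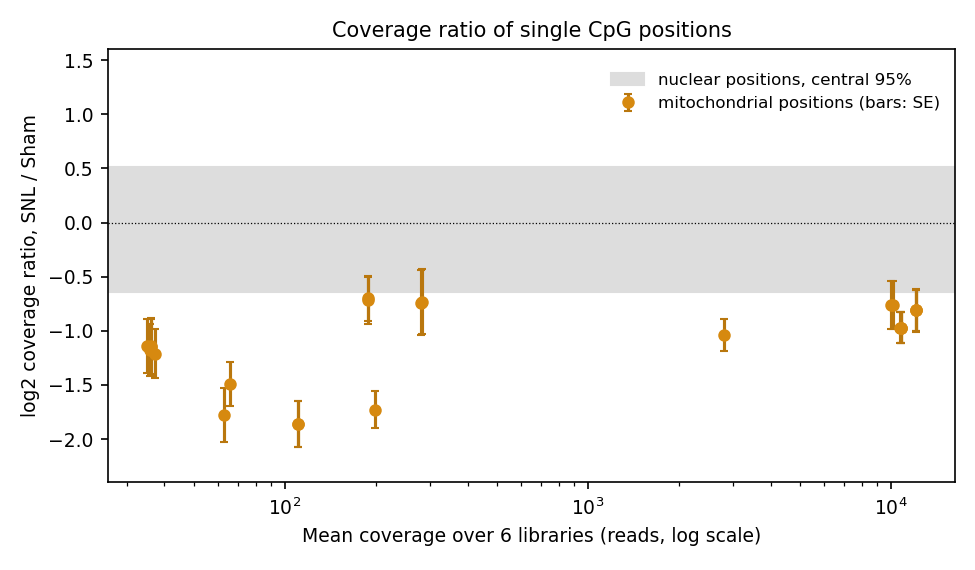
Fitted log2 ratio of coverage, SNL over Sham, against mean coverage (reads, log scale) for the 24 mitochondrial positions tested, with SE bars from edgeR's fit. The grey band holds the central 95% of nuclear positions (-0.64 to 0.51), and every mitochondrial point lies below it.

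The mitochondrial positions were sorted by methylation into 2 main kinds. Of the 136 positions with 10 or more reads over all libraries, 44 had under 10% of reads with C, 90 had 50% or more, and 2 lay between. The deepest positions were all of the first kind: each of the 25 positions with 100 or more reads in all had between 0.761% and 5.26% methylation. The highly methylated kind was shallow, with 10 to 82 reads per position over the 6 libraries and a median of 20 reads. Its positions ran from 50% to 100%, and the deepest, with 82 reads, stood at 68.3%, so some were mixed. This kind was nevertheless widespread, and 65 of its 90 positions were listed in all 6 libraries.

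**Figure D3:**
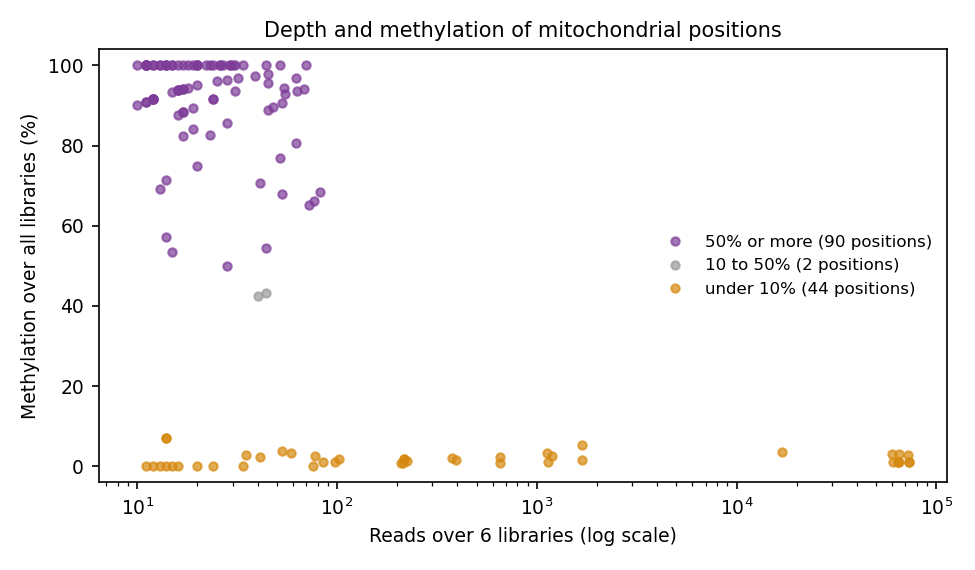
Methylation over all libraries (percent of reads with C) against the number of reads over all libraries (log scale) for the 136 mitochondrial positions with 10 or more reads. The 90 positions at 50% or more have at most 82 reads each, and the deep positions lie between 0.761% and 5.26%.

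The lower coverage after SNL was seen in the hardly methylated positions and was not seen in the highly methylated ones. The 44 hardly methylated positions together had 2567, 1956 and 2656 CPM in SNL 1 to 3, against 5415, 3472 and 4241 CPM in Sham 1 to 3, a ratio of 0.547 with no overlap (exact permutation p = 0.1). The 90 highly methylated positions had 9.13, 14.2 and 21.1 CPM after SNL, against 7.94, 15 and 13.4 CPM in Sham, a ratio of 1.22 with groups that overlapped (exact permutation p = 0.5). SNL 3 had the highest value of the highly methylated class, and without it the ratio was 0.963. The classes were formed after their values were seen.

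The difference between the 2 kinds was itself not separable from the spread. The hardly methylated coverage was 281, 138 and 126 times the highly methylated coverage after SNL, against 682, 232 and 316 times in Sham. SNL 1 lay above Sham 2, and the log2 values differed by -1.12 (exact permutation p = 0.2).

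Among the hardly methylated positions, the shallower classes had the lower ratios of summed coverage. The 10 positions with a mean of 1000 reads or more had a ratio of 0.548. The 7 positions with a mean of 100 to 1000 reads averaged 29 ± 3.95 CPM after SNL and 58.9 ± 20 CPM in Sham (SD, n = 3 each), a ratio of 0.492. The 27 positions below that mean had 7.65, 7.17 and 9.08 CPM after SNL, against 21.5, 21.1 and 20.7 CPM in Sham, a ratio of 0.377. Positions entered with 10 or more reads over both groups together, so some of these 27 entered mainly through Sham reads. That selection can lower the ratio of this class. The groups did not overlap in any of the 3 classes (exact permutation p = 0.1 each), and the differences between the ratios were not tested. Position by position the order differed. The median fitted log2 ratios were -0.89, -0.74 and -1.18 from the deepest class to the shallowest, the last over the 7 positions tested. In the middle class sites 1 to 4 had fitted ratios of 0.597 to 0.614. Positions 1778, 15722 and 15732 of that class had fitted ratios of 0.301, 0.275 and 0.275.

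**Figure D4:**
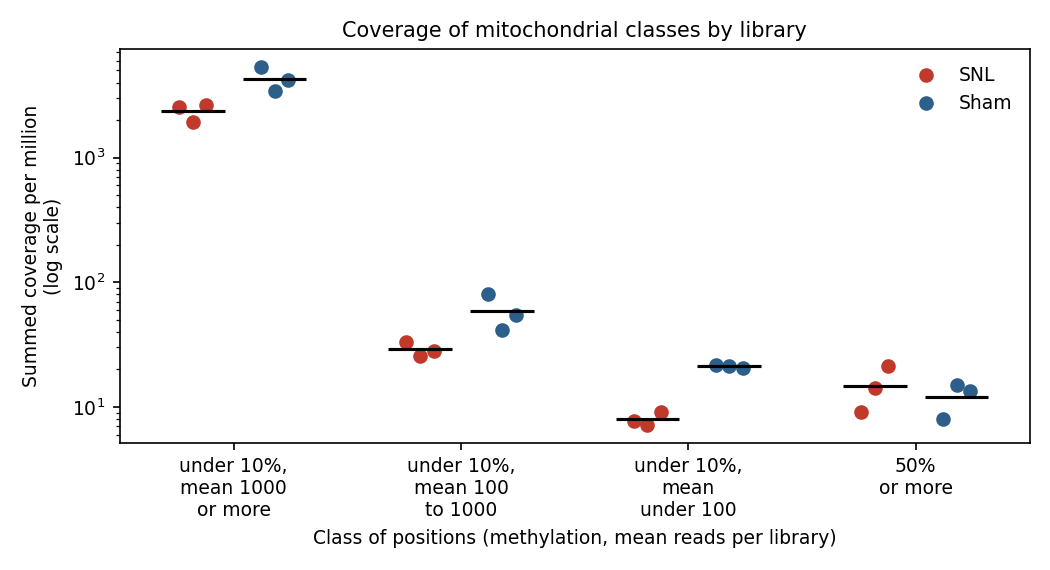
Summed coverage in CPM (log scale) of 4 classes of mitochondrial positions in each library, with SNL left of Sham and lines for group means. The 3 hardly methylated classes lie lower in every SNL library, with ratios of 0.548, 0.492 and 0.377, while the highly methylated class overlaps.

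Methylation of the 14 deep sites was low in every library. The mean over sites was 2.2%, 2.71% and 2.51% in SNL 1 to 3, against 2.03%, 2.16% and 1.96% in Sham 1 to 3. Every SNL library lay above every Sham library, with SNL 1 close to Sham 2. SNL libraries averaged 2.47% ± 0.255 and Sham libraries 2.05% ± 0.1 (SD, n = 3 each), a difference of 0.42 points (exact permutation p = 0.1, adjusted p = 0.15). Weighted by reads, so that the deepest sites count most, SNL 1 to 3 stood at 1.81%, 1.82% and 1.92%, against 1.77%, 1.7% and 1.75% for Sham 1 to 3, and the difference was 0.11 points. Over the 10 sites with 200 or more reads in every library it was 0.16 points. The size of the difference therefore rested mainly on the 4 shallow sites of runs 1 and 2.

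Other values of the same libraries were also measured. The median of nuclear CpG island sites, which are mostly unmethylated, was 1.89%, 1.78% and 1.89% after SNL, against 1.83%, 1.69% and 1.75% in Sham. These medians overlapped between the groups. The means of CpG island sites in promoters did not overlap, at 3.68%, 3.63% and 3.65% after SNL, against 3.58%, 3.57% and 3.45% in Sham. The highly methylated mitochondrial positions made up a larger part of mitochondrial coverage in 2 of the 3 SNL libraries than in any Sham library. The part of any of these in the mitochondrial difference was not tested.

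No single site passed the test of methylation. The 14 sites were fitted together with the 32674 nuclear sites of this depth, in a moderated quasi-binomial regression on group. It called 0 of the 14 mitochondrial sites at an adjusted p under 0.05, against 1.42% of all sites. At an unadjusted p under 0.05 it had 2 of 14, against 13.1% of all sites, and limma on logit values had 0 at either level. The groups did not overlap at 2 of 14 sites, against 17.8% of all sites. Both shares lie near or below the background.

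The 2 sites whose groups did not overlap were sites 5 and 10. Site 5 (position 8670) had 4.05%, 4.22% and 4.23% after SNL, against 3.28%, 3.38% and 2.96% in Sham, at 1610 to 4117 reads. It was higher in all SNL libraries by 0.96 points on average (unadjusted p = 0.0101, adjusted p = 0.19, moderated quasi-binomial test with limma's variance moderation over all sites). Site 10 (position 12749) had 3.3%, 2.96% and 3.15% after SNL, against 2.89%, 2.86% and 2.77% in Sham, a difference of 0.30 points (adjusted p = 0.374, same limma-moderated test).

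The sites differed from each other far more than the groups did. Site 4 (position 5768) was the highest, at 4.49%, 7.84% and 7.78% after SNL against 3.96%, 4.76% and 5.62% in Sham, at 180 to 581 reads. Site 1 (position 5707) had 2.38%, 5.97% and 3.7% after SNL, against 3.92%, 3.39% and 1.11% in Sham. The groups overlapped at both. Site 2 (position 5734) averaged 1.52% ± 1.32 after SNL and 0.773% ± 0.37 in Sham (SD, n = 3 each). It had 0% in SNL 3, where 136 reads allow up to 2.21%. Site 3 (position 5735) averaged 2.23% ± 0.544 after SNL and 1.81% ± 1.39 in Sham.

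In both runs with more than 2 sites, the highest site was at an end of the run. In run 4, site 9 (position 8869) had 3.23%, 2.94% and 3.33% after SNL, against 3.07%, 2.81% and 3.27% in Sham. The other 3 sites of that run (positions 8822, 8827 and 8851) had means between 0.995% and 1.13% over all libraries, and none of their values reached those of site 9. In run 5, site 10 averaged 2.99% over the 6 libraries, whereas sites 11 and 12 (positions 12773 and 12789) averaged 1% and 1.01%. In run 6, site 14 (position 12864) had 3.05%, 3.22% and 3.29% after SNL, against 3.15%, 2.96% and 3.51% in Sham, while site 13 (position 12846) averaged 1.16%. The levels of the 14 sites were correlated between libraries, with Pearson's r from 0.74 to 0.95 over the 15 pairs of libraries. This is a description across sites that share libraries.

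**Figure D5:**
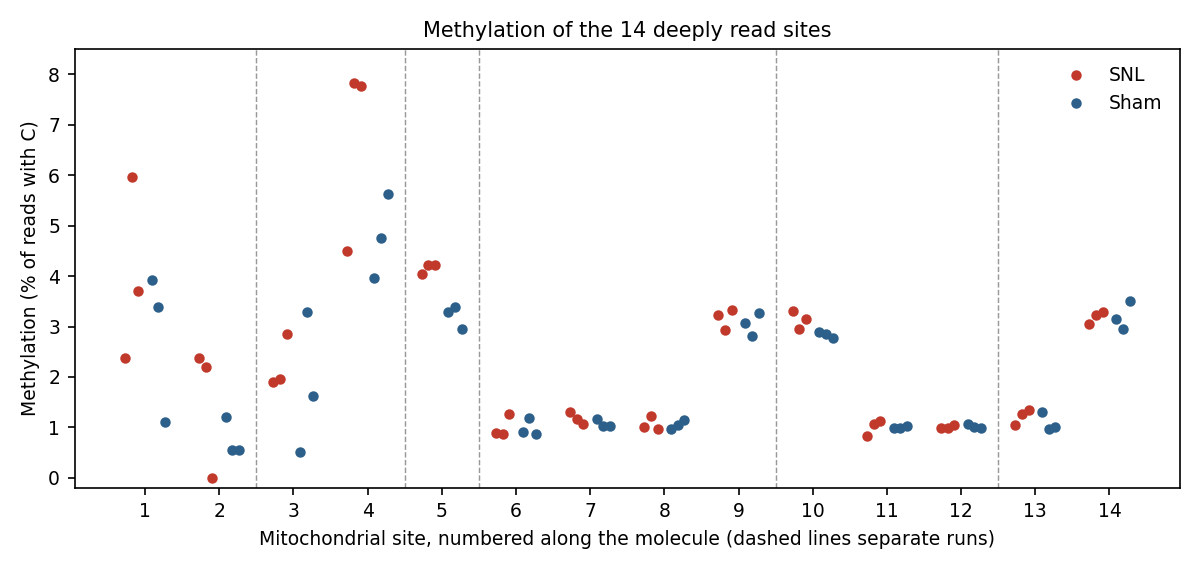
Methylation (percent of reads with C) at the 14 deep mitochondrial sites in each library, with SNL left of Sham at each site and dashed lines between runs. Sites 9, 10 and 14 lie near 3% beside sites near 1% of the same runs, and sites 1 to 4, with 134 to 581 reads, spread most.

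Set beside the nuclear genome, the mitochondrial sites were low in methylation. Over all 6 libraries they averaged 2.26% ± 0.289, against 9.98% ± 0.166 for 1473 sites in nuclear CpG islands flagged in the authors' deposited table (SD, n = 6 each). They were lower in 6 of 6 libraries, with a difference of -7.71 points (exact sign-flip permutation p = 0.0312, adjusted p = 0.15). This p is the smallest that 6 libraries allow, and it measures the spread between libraries and not between sites. Against the 787 island sites also flagged as promoter, which averaged 3.59% ± 0.0795, the difference was -1.33 points (n = 6, exact sign-flip permutation p = 0.0312). By medians over sites the levels were 1.78% ± 0.461 for mitochondrial sites and 1.8% ± 0.0799 for island sites, a difference of -0.03 points (n = 6 each, exact sign-flip permutation p = 0.844). Of the island sites 57.8% had a mean at or below the mitochondrial mean, and of all 32674 nuclear sites 5.68%.

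Nuclear genes that maintain mitochondrial DNA were looked at in the same fit. A list of 37 genes for its replication, transcription, packing and supply was used, of which 19 were the nearest gene of 80 annotated nuclear sites. None of the 80 sites was called in either direction in the limma-moderated test, against 1.42% of all sites, and 7 of the 80 had an unadjusted p under 0.05, against 13.1% of all sites. Their median difference was -0.60 points, against -0.55 points over all nuclear sites. The lowest p belonged to a site 253 kb from the start of Ppargc1a, a coactivator of mitochondrial biogenesis (chromosome 14, position 64531118). It had 72.2%, 77% and 75.9% after SNL, against 87.1%, 84.7% and 84.7% in Sham (adjusted p = 0.105, same test). The next site lay in a CpG shore 55.6 kb from the start of Tefm, a mitochondrial transcription elongation factor. It averaged 79.3% after SNL and 86.5% in Sham (adjusted p = 0.113, same test). An intron site assigned to Mpv17, a mitochondrial inner membrane protein needed to keep mitochondrial DNA, averaged 60.3% after SNL and 68% in Sham (adjusted p = 0.216, same test).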

How the data were processed

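The submitters' processing notes name Bismark 0.18.1, Bowtie2, methylKit 1.3.3 and the rat build rn4, while the labels' protocol names a human assembly. Sequencing gave 50 bases from 1 end of each fragment, per the labels' protocols. Per the file headers, the deposited per-library files give coverage as a read count per position and the percent of reads with C and with T. The deposited series table gives percent methylation, p-values and q-values of the authors, their difference in points (unit score here) and flags, and lists no mitochondrial site among its 32674 sites.

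Methylated counts were recovered as coverage times percent. Sites were fitted by logistic regression with overdispersion moderated by limma's squeezeVar over sites of non-zero dispersion and kept at 1 or above (Benjamini-Hochberg, 0.05). Coverage was fitted with edgeR (TMM, totals of all listed positions, a common dispersion), a test added after seeing the data. The lambda phage spike (100 pg in 1 µg of DNA, per the labels' protocols) was not analysed here, so conversion is not measured. All 14 deep sites are named, and of the gene list the 3 sites of lowest p. Shallower positions are named where they were among the 3 of highest methylation at 20 or more reads in every library. Positions next to a deep site are named where they had 44 or more reads over all libraries. The other neighbours had at most 34 reads and are left out. A further position is named for its result in the coverage test, as stated there. Positions and lists were chosen with earlier results of these data known. Gene symbols came from RefSeq names of GRCr8 by accession (7627 of 8123 transcripts matched). P-values measure the spread between libraries, which may be technical. Alternatives covered depth minimum, weighting, scaling, test, replicate block and leaving out each library. Python 3.11.15 ran scipy 1.17.1, numpy 2.4.6, matplotlib 3.10.9 and pandas 2.3.3, and R 4.3.3 ran edgeR 4.0.16, limma 3.58.1 and data.table (release 1.17.8).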

Additional observations from a re-analysis of the deposited data

How the results depend on the processing

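The ratio of the mitochondrial share stayed between 0.518 and 0.566 under the 4 other definitions of the share and between 0.498 and 0.622 without any library in turn. The methylation difference stayed above 0, from 0.11 (read-weighted) to 0.64 points (median over sites), and 0.31 to 0.56 without a library. With same-numbered libraries as a block, p was 0.25 for both, the smallest that 3 pairs allow. The count of called mitochondrial sites was 0 under all settings run, although 6 of 14 sites changed sign without some library. Over all sites the main count of 464 became 1195 and 713 at minimums of 20 and 50 reads, 0 by the unmoderated F test (1969 at an unadjusted p under 0.05) and by limma (3482), and 129 to 522 without a library. The coverage test called 0 mitochondrial positions with other scaling, 11 with the replicate block (62 of all 319525 positions, 20 of them lower after SNL) and 0 to 2 without a library (0 to 2 of all positions). Deviations of same-numbered libraries correlated at 0.25, 0.49 and -0.08 in coverage and at -0.05, 0.26 and -0.14 in methylation, so the numbers are not shown to pair libraries. Against CpG islands the difference was -0.03 for medians and -7.78 to -7.65 without a library, where 5 libraries cannot give a p under 0.0625. The ratio of highly methylated coverage was 0.963 to 1.46 without a library, and the cause of its turn was not tested.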

Other observations

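Beside some deep sites a shallow position was listed at the next base. Position 12863, next to site 14, was covered by 6, 5 and 6 reads in SNL 1 to 3, against 36, 19 and 30 reads in Sham 1 to 3, a ratio of 0.191 after scaling to summed coverage, while site 14 itself had a ratio of 0.593. Position 8671, next to site 5, had 5, 10 and 6 reads after SNL, against 21, 21 and 15 reads in Sham, a ratio of 0.348. Position 12847, next to site 13, had 9, 9 and 12 reads after SNL, against 19, 12 and 15 reads in Sham, and position 12750, next to site 10, had 8, 2 and 5 reads after SNL, against 11, 20 and 7 reads in Sham. After scaling to summed coverage the groups overlapped at position 12847 and not at the other three, although at 12750 SNL 1 had more reads than Sham 3 before scaling. The position next to site 1, 5708, was read as methylated in 43.2% of 44 reads, against 3.37% at site 1. Its libraries were uneven, each with 3 to 16 reads. They stood at 25%, 66.7% and 71.4% in SNL 1 to 3, against 0%, 56.2% and 0% in Sham 1 to 3. Positions 12863, 8671, 12847 and 12750 were low, at 1.96%, 2.56%, 0% and 3.77% over all libraries.

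The 90 highly methylated positions were read as methylated in 88.2%, 94.7% and 96.9% of reads in SNL 1 to 3, against 79.7%, 79.1% and 88% in Sham 1 to 3. Each SNL library lay above each Sham library. Neighbouring positions share reads and the class was chosen by methylation over all libraries, so this is given as a description. The 223 positions with fewer than 10 reads over all libraries split nearly evenly, with 106 at 50% or more and 107 under 10%.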
